A study of Mus musculus with 12 samples.

Results

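The nuclear genes that encode the subunits of oxidative phosphorylation were examined in RNA from the hippocampus of mice. They were taken by symbol, as genes beginning with Nduf followed by a, b, c, s or v and a digit, Sdha to Sdhd, Uqcr, Cox4 to Cox8 or Atp5, and kept where FPKM reached 0.5 in 3 or more libraries. FPKM is a level that takes account of a transcript's length and of the size of the library. Of 21878 genes listed, 84 matched the symbols and 82 were kept, among 12689 genes that passed the same filter on low values. The 2 genes left out were Cox4i2 and Cox8c, isoforms of complex IV subunits, and Cox8c was listed at 0 in every library. Complexes were assigned by the symbol alone, and the kept genes comprised 37 of complex I, 4 of II, 8 of III, 16 of IV and 17 of V. This places Ndufa4 and Ndufa4l2 in complex I, and an alternative counted both in complex IV. The symbols leave out some true subunits, among them Cyc1 and Ndufab1, and the 26 mitochondrially encoded entries of a second list were not analysed here.

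The study compared mice with a conditional double knockout of presenilin genes (DKO) with WT mice, each killed by day or at night, in 4 groups (Day WT, Day DKO, Night WT and Night DKO) of 3 libraries. Presenilins are the catalytic part of gamma-secretase, the protease that cleaves Notch and the amyloid precursor protein. Killing took place at 9 in the morning or evening by the series description, under pentobarbital at 30 mg/kg, and names the hippocampus, while the sample labels name brain. The labels state neither the promoter or cell type behind the conditional deletion nor the strain, age or sex of the mice, nor whether each library is a separate mouse, and p-values therefore reflect the spread among these libraries alone, which may be technical.

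Oxidative phosphorylation takes place in the inner mitochondrial membrane. Complexes I and II pass electrons from NADH and succinate to ubiquinone, complex III passes them on to cytochrome c, complex IV reduces oxygen, and complex V, the ATP synthase, uses the proton gradient that complexes I, III and IV build up. Neurons draw most of their ATP for ion pumping and synaptic transmission from this pathway, and most of its subunits are encoded in the nucleus and imported.

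Psen2 separated the genotypes as labelled, at 1.47 to 3.64 FPKM in the 6 WT libraries and 0.275 to 0.594 FPKM in the 6 DKO libraries. Summed FPKM per library ran from 151059 to 175692, the number of reads is not given in the sources used here, and median-of-ratios factors ran from 0.941 to 1.05, lowest in Day WT and highest in Night WT. Night WT replicate 1 stood apart in Y-linked genes, with Ddx3y at 0.0225 FPKM against 6.83 to 8.56 FPKM in the other 11 libraries. The summed level of 16 choroid plexus genes ran from 79.6 FPKM in Day DKO replicate 2 to 3316 FPKM in Night WT replicate 3. The lists of excitatory neuron, interneuron, astrocyte, microglia and oligodendrocyte markers were all detected. In tissue RNA, fewer cells of a type and less RNA per cell cannot be told apart.

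Subunit genes were among the more abundant genes of the tissue. The median over the 82 genes of the mean level was 69.5 FPKM, against 4.50 FPKM over all genes tested, and together they held 6.33% to 7.20% of a library's FPKM. Their transcripts were short, with a median length of 794.5 bases against 3230 bases, and 80 of the 82 were shorter than the median tested gene. Levels within a complex were far from equal. In complex I, as assigned by symbol, they ran from Ndufa4l2, a paralog of Ndufa4, at 0.513 FPKM to the accessory subunit Ndufa3 at 424 FPKM. Complex II was the most even, from the membrane anchor Sdhc at 40.1 FPKM to the flavoprotein Sdha at 66.1 FPKM. The small subunits Uqcrq and Uqcr11 marked the ends of complex III at 28.4 and 356 FPKM. In complex IV the range was from Cox7b2, an isoform known from testis, at 0.378 FPKM to the ubiquitous isoform Cox8a at 749 FPKM. In complex V it was from Atp5s at 1.93 FPKM to Atp5k, subunit e at the interface of ATP synthase dimers, at 1431 FPKM. Of the 84 genes, 82 carried the pathway name oxidative phosphorylation in the authors' deposited annotation, the exceptions being Atp5s and Atp5sl.

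**Figure D1:**
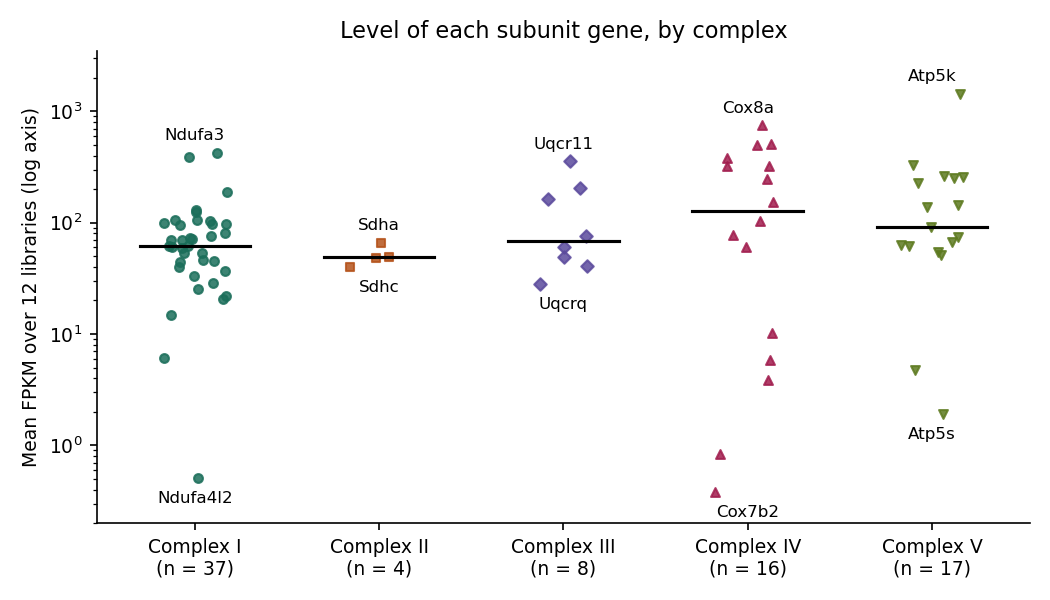
Mean FPKM over 12 libraries of each kept subunit gene on a log axis, by complex; each point is a gene and the horizontal bars are medians. The highest and lowest gene of each complex is named, and the medians lie between 49.1 FPKM for complex II and 128 FPKM for complex IV.

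Upstream sequences were read from RefSeq (build GRCm38.p6) for 69 of the 82 genes, over 300 bases from 250 before to 50 after the annotated start. Known regulators of respiratory genes include NRF1, the ETS factor GABPA, the estrogen-related receptors and YY1. The NRF1 motif (GCGC, any base, then TGCGC) was present on either strand in 17 of the 69 (24.6%), against 11.3% of 10139 tested genes with such a sequence. The YY1 motif AAGATGGCG was found in 8 (11.6%, against 3.48%) and the estrogen-related receptor motif TCAAGGTCA in 2 (2.90%, against 0.326%). The ETS motif CCGGAAGT stood in 5 (7.25%, against 8.64%) and the E-box CACGTG, to which clock proteins can bind, in 7 (10.1%, against 11.8%). No motif of this list contains another. A match describes the letters only. Shown here are the 120 bases before the start, 5′ to 3′, of genes on which the results below turn, namely Ndufs8, Ndufv3 and Atp5g3, which were higher at night, and Atp5s, which was higher in DKO. Those of Ndufb4 and Sdha show repeated NRF1 matches for comparison. Capitals mark matches to the motifs above, NRF1 in Ndufb4 and Sdha and the estrogen-related receptor motif on the opposite strand in Atp5g3, and a sequence without capitals has none. The intervals are, in the order of the lines, chr19:3912775-3912894, minus strand for Ndufs8, chr17:31519995-31520114, plus strand for Ndufv3, chr2:73911327-73911446, minus strand for Atp5g3, chr12:69724825-69724944, plus strand for Atp5s, chr16:37654369-37654488, minus strand for Ndufb4 and chr13:74350241-74350360, minus strand for Sdha.
Ndufs8: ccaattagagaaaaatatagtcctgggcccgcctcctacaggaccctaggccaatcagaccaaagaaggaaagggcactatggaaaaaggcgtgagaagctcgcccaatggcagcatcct
Ndufv3: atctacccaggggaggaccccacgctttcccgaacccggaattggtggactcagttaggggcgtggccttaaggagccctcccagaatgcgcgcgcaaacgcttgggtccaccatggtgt
Atp5g3: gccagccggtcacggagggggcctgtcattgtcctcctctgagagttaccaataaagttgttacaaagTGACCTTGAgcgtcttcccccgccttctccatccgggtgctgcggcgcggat
Atp5s: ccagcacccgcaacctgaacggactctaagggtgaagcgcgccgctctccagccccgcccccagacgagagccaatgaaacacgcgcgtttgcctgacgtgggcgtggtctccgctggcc
Ndufb4: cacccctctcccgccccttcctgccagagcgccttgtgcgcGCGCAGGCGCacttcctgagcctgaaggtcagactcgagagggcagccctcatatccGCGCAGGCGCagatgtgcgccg
Sdha: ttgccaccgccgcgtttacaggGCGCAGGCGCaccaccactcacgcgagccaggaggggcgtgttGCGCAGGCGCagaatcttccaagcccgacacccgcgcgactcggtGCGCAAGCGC

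Night was first set against day in each genotype. In WT, the subunit genes were higher at night in sign for nearly every gene, by a median of 0.19 in log2(FPKM + 1), with 79 of 82 differences above 0. The median over all 12689 genes was 0.07, with 72.1% of differences above 0. After median-of-ratios scaling, which sets the median gene of each library equal, the members' median was 0.10 and 71 of 82 differences were above 0, against a median of 0.00 over all genes. The medians of the complexes were close to one another, at 0.19 for complex I, 0.21 for II, 0.23 for III, 0.16 for IV and 0.18 for V, and at 0.11, 0.12, 0.14, 0.09 and 0.09 with scaling. The subunit transcripts are shorter than most, and removing each library's trend with transcript length lowered these medians further. They were then 0.08, 0.11, 0.11, 0.02 and 0.04 for complexes I to V. All 3 Night WT libraries lay above all 3 Day WT libraries for 44 of the 82 genes, against 24.3% of all genes tested, and for 25 with scaling, against 11% of all genes. None of the 82 was below without overlap in either setting, where 4.37% (11.9% with scaling) of all genes were.

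At an adjusted p under 0.05 over all genes (limma), 3 of the 82 were called in WT, all higher at night, where 1.67% of all genes were called, 192 higher (1.51%) and 20 lower. They were the membrane anchor Sdhc of complex II (0.34, SE 0.07, adjusted p = 0.0401) and the iron-sulfur proteins Ndufs8 (0.33, SE 0.07, adjusted p = 0.0429) and Ndufs1 (0.28, SE 0.06, adjusted p = 0.045) of the complex I core. With scaling none was called, 16 of the 82 having an unadjusted p under 0.05, and 0.433% of all genes were, 22 higher and 33 lower. In DKO, the median night difference of the members was 0.08 (0.05 with scaling), with 68 of 82 above 0 (60 with scaling), and all 3 night libraries lay above all 3 day libraries for 11 of them, against 12.9% of all genes, and below for none, against 6.44%. With scaling 7 members were above without overlap (9.88% of all genes) and 1 below (9.34%). No member was called by limma in DKO, with 11 at an unadjusted p under 0.05 (10 with scaling), where 0.299% of all genes were called (0.544% with scaling). Without Night WT replicate 1, the library with low Y-linked genes, none of the 82 was called in WT. The same held without Day WT replicates 1 or 3, Night WT replicates 2 or 3, or Night DKO replicate 3.

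**Figure D2:**
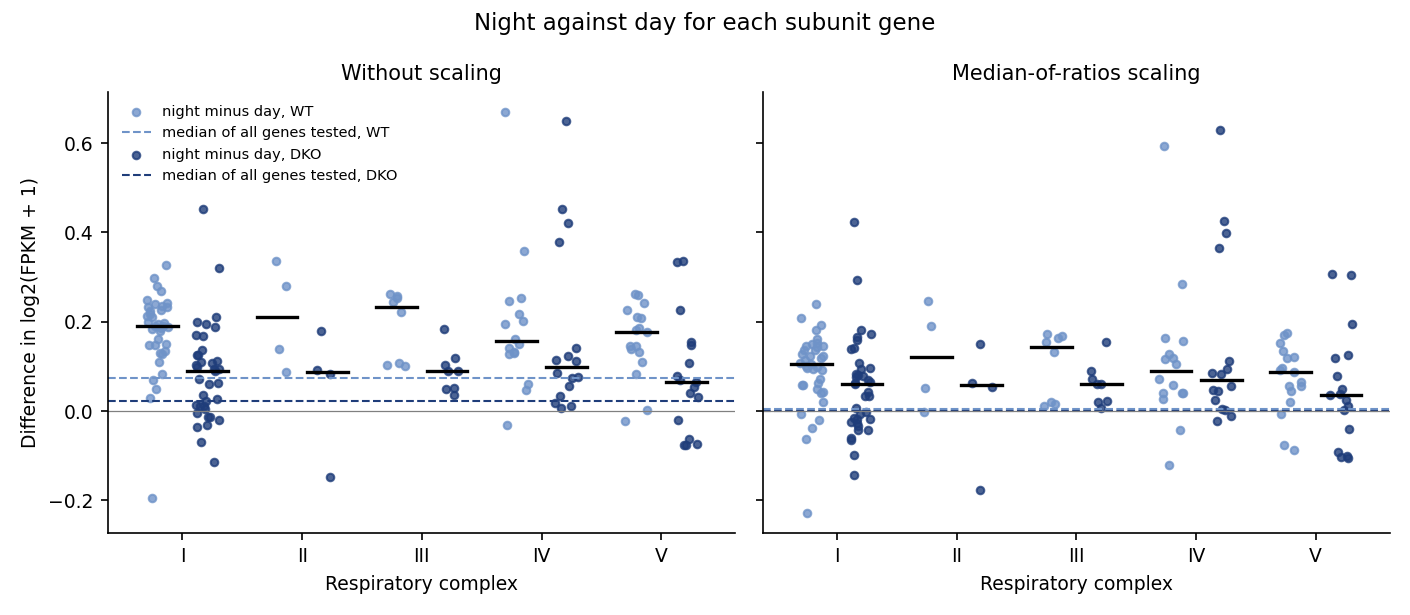
Night minus day difference in log2(FPKM + 1) of each subunit gene by complex, in WT (light) and DKO (dark), without scaling (left) and with median-of-ratios scaling (right); black bars are medians and dashed lines the medians of all genes tested. The WT medians lie between 0.16 and 0.23 without scaling and between 0.09 and 0.14 with it.

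Whether the night difference itself differed between genotypes was tested by the interaction. Its median over the 82 genes was -0.10, that is, a smaller night difference in DKO, with 63 of 82 below 0, against -0.05 over all genes. With scaling it was -0.04, with 47 of 82 below 0, against 0.00 over all genes. No member was called by limma, nor was any gene (0%). At an unadjusted p under 0.05 there were 8 of the 82, all negative, and 1099 of all genes, and with scaling 3 and 944. The smallest p belonged to Ndufa10, an accessory subunit of complex I (-0.32, SE 0.12, adjusted p = 0.561). Its FPKM was 31.2, 32.2 and 37.2 in Day WT, 38.2, 40.9 and 37.4 in Night WT, 35.2, 43.4 and 37.9 in Day DKO, and 37.0, 32.8 and 37.6 in Night DKO. It was thus higher at night in WT with no overlap, while the DKO libraries of both times overlapped. Next in complex I was Ndufb10 of the membrane arm (-0.25, SE 0.10). The smallest p in complex II belonged to the anchor Sdhd (-0.24, SE 0.11) and Sdhb (-0.19), and in complex V to Atp5c1, the rotating gamma shaft of the ATP synthase (-0.23, SE 0.09), and Atp5a1 (-0.19). In complex III they were those of the Rieske protein Uqcrfs1 (-0.20) and Uqcrb (-0.22), and in complex IV those of Cox5a (-0.18) and Cox4i1 (-0.14). None of these passed, with adjusted p of 0.561 (Ndufb10) to 0.669 (Cox4i1) by limma.

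**Figure D3:**
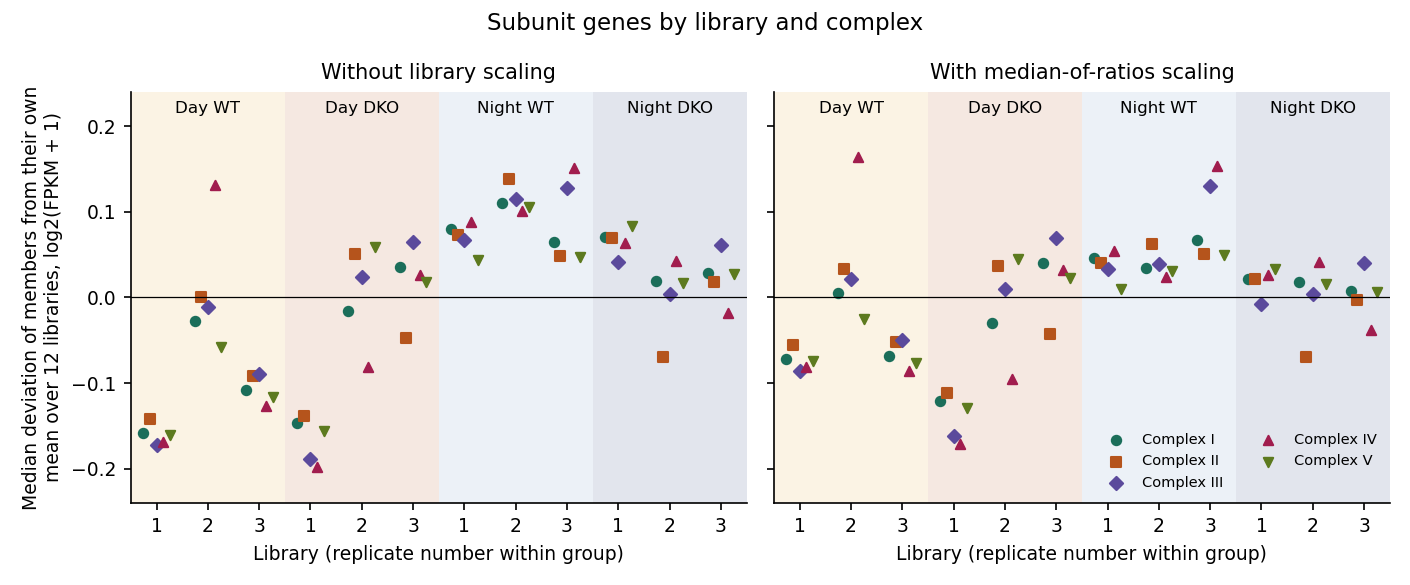
Median deviation of the genes of each complex from their own means over 12 libraries, in log2(FPKM + 1), for each library, without scaling (left) and with median-of-ratios scaling (right); symbols are complexes and shading the groups. Over all 82 genes the median deviation was lowest in Day WT replicate 1 (-0.16) and Day DKO replicate 1 (-0.16), and it lay between 0.08 and 0.11 in Night WT.

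The Day DKO libraries did not move together. The median deviation of the 82 genes was -0.16, 0.00 and 0.03 in Day DKO replicates 1 to 3, and -0.16, -0.02 and -0.11 in Day WT. The night libraries were tighter, at 0.08, 0.11 and 0.09 in WT and 0.08, 0.02 and 0.03 in DKO. With scaling, Day DKO replicate 1 stayed lowest at -0.13. Without it, the night median of complex I in DKO was 0.01 in place of 0.09. In Day WT replicate 2 the genes of complex IV lay above those of the other complexes, with a median deviation of 0.13 against -0.06 to 0.00.

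Averaged over both genotypes, night exceeded day by a median of 0.14 over the 82 genes (0.08 with scaling), with 77 (70) above 0, against 0.05 (0.00) over all genes. The test called 9 of the 82, all higher at night, where 6.07% of all genes were called, 659 higher (5.19%) and 111 lower. With scaling it called 3, again all higher, where 3.85% of all genes were called, 207 higher (1.63%) and 282 lower. Called members thus made up 11% of the 82 without scaling and 3.66% with it. With the length trend removed the medians of complexes I, III and V were 0.04, 0.05 and 0.03.

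Marker genes of other cell types also differed between night and day. All 5 blood genes tested were called higher at night, with a median of 0.50, and 1 of 5 was called with scaling (median 0.44). Their summed level was 90.5 to 153 FPKM by day and 116 to 286 FPKM at night, so that the ranges overlapped. Of 8 oligodendrocyte genes 7 were above 0 (median 0.19), with the myelin genes Mog and Cldn11 called (Mog alone with scaling), at a summed level of 321 to 435 FPKM by day and 358 to 526 FPKM at night. All 16 choroid plexus genes were above 0 (median 0.59) and none was called by limma, 8 having an unadjusted p under 0.05. Their sum was 79.6 to 2934 FPKM by day and 1439 to 3316 FPKM at night. Of 8 endothelial genes 2 were called higher and 1 lower, of 8 astrocyte genes 1 higher and of 10 excitatory neuron genes 1 lower, and none of the 10 microglia, 11 mural or 8 interneuron genes was called (1, 2 and 0 at an unadjusted p under 0.05). With the choroid plexus covariate 3 of the 82 members were called in place of 9. The median sum of that list was itself 1539 FPKM by day and 2707 FPKM at night, so its part and that of time cannot be told apart. The part of these lists in the night differences was not tested.

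Ndufs8 carries iron-sulfur clusters in the arm of complex I that leads electrons to ubiquinone. Its FPKM was 23.5, 28.2 and 25.6 in Day WT, 25.4, 28.6 and 25.1 in Day DKO, 32.9, 32.6 and 32.0 in Night WT, and 29.4, 31.4 and 31.0 in Night DKO. Each of the 6 night libraries exceeded each of the 6 day libraries. The averaged difference was 0.27 (SE 0.05, adjusted p = 0.0135), and 0.21 with scaling (adjusted p = 0.0265). It was called in 23 of 23 settings tried. Sdhc, which anchors complex II in the membrane, had 35.8, 40.6 and 37.4 FPKM in Day WT and 47.4, 48.9 and 48.0 FPKM in Night WT. In DKO it had 34.6, 36.4 and 33.3 FPKM by day and 42.3, 35.9 and 40.5 FPKM at night. The WT groups were apart, whereas Night DKO replicate 2 fell among the Day DKO libraries. The averaged difference of 0.26 (SE 0.05, adjusted p = 0.014) remained past the threshold in 23 of 23 settings, and was 0.20 with scaling (adjusted p = 0.0231).

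Ndufv3, an accessory subunit at the NADH-oxidising tip of complex I, was expressed at a lower level, with 5.05, 5.31 and 6.23 FPKM in Day WT and 6.82, 6.35 and 6.21 FPKM in Night WT. In DKO the values were 5.03, 5.72 and 5.49 FPKM by day and 7.64, 6.79 and 6.6 FPKM at night. The DKO groups were apart, and in WT the highest day library just exceeded the lowest night library. The averaged difference was 0.26 (SE 0.05, adjusted p = 0.0222), 0.21 with scaling (adjusted p = 0.0401), and was called in 19 of 23 settings. Without Day WT replicate 1 or Night WT replicate 1 it was not called.

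The other genes called at night were called without scaling and not with it. Among them Atp5g3, a gene for subunit c of the proton-driven rotor, rose by 0.30 (SE 0.06, adjusted p = 0.025; 0.24 and 0.0677 with scaling). Its FPKM was 119, 134 and 127 in Day WT, 124, 108 and 138 in Day DKO, 146, 143 and 166 in Night WT, and 158, 162 and 146 in Night DKO. All night libraries were above all day libraries. The complex I genes Ndufb5 (0.20, adjusted p = 0.0312), Ndufv2 (0.20, adjusted p = 0.0421), Ndufa2 (0.19, adjusted p = 0.0268) and Ndufs1 (0.17, adjusted p = 0.0394) rose by less. Of these, Ndufs1 and Ndufv2 are iron-sulfur proteins of the core, and Ndufa2 and Ndufb5 are accessory subunits. With scaling their differences were 0.11 to 0.14, with adjusted p of 0.0651 to 0.113. Cox6a2 was the only called gene of complex IV (0.39, SE 0.10, adjusted p = 0.0417; 0.34 and 0.0828 with scaling). In complex III, no gene was called, the smallest adjusted p being those of the core proteins Uqcrc1 (0.17, adjusted p = 0.0639) and Uqcrc2 (0.17, adjusted p = 0.0813). Next in the other complexes were Cox7b (0.18, adjusted p = 0.0518), Sdhb (0.19, adjusted p = 0.0683) and Atp5a1, the alpha subunit of the catalytic head (0.15, adjusted p = 0.0745).

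Genotype was then compared. By day, the members' median difference between DKO and WT was 0.05, against 0.04 over all genes, and 0.00 with scaling. At night it was -0.05, against -0.01 over all genes, and -0.03 with scaling. By day 7 of 82 genes were above without overlap (14.3% of all genes) and 2 below (5.26% of all genes), while at night 1 was above (5.73%) and 18 below (9.48%). With scaling the day counts were 5 above (8.97%) and 4 below (8.24%), and the night counts 6 above (8.13%) and 15 below (9.72%). Cox6a2 was the only member called by day, with and without scaling, where it was lower and 1.18% of all genes were called, 0.386% lower (1% and 0.512% with scaling). At night limma called none of the 82, with 7 at an unadjusted p under 0.05, where 0.0236% of all genes were called with and without scaling. Averaged over time, the members' median was 0.00 (-0.02 with scaling), and by complex it lay between -0.03 (IV) and 0.03 (I). The test called 2 of the 82, Cox6a2 lower and Atp5s higher, where 1.88% of all genes were called, 1% higher and 0.875% lower. With scaling it called 4, 1 higher and 3 lower, Sdhc among the lower ones, where 2.51% were called, 1.09% higher and 1.42% lower.

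Cox6a2 encodes the heart and muscle isoform of a complex IV subunit whose ubiquitous isoform is Cox6a1, and in brain it is known from parvalbumin interneurons. Its FPKM was 3.43, 4.85 and 4.32 in Day WT against 2.92, 1.82 and 1.93 in Day DKO. At night it was 5.0, 5.88 and 6.04 in WT against 2.57, 3.72 and 3.62 in DKO. At each time all DKO libraries were below all WT libraries. The averaged difference was -0.66 (SE 0.10, adjusted p = 0.0115), a fold of 0.631 on the scale of FPKM + 1, and it was called in 22 of 23 settings, the exception being the fit without a filter on low values. By day the difference was -0.70 (SE 0.14, adjusted p = 0.0377; called in 12 of 24 settings) and at night -0.63 (adjusted p = 0.248). Cox6a1 stood at 379 ± 64.6 (SD, n = 3) FPKM in Day WT, 363 ± 33.2 in Day DKO, 389 ± 24.2 in Night WT and 400 ± 38.5 in Night DKO.

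Values of other cell types stand beside this difference. Pvalb, the marker of parvalbumin interneurons, ran from 14.0 to 20.5 FPKM over the 12 libraries of both genotypes. Of 8 interneuron list genes limma called 0 in the averaged comparison, 2 having an unadjusted p under 0.05. The summed level of that list was 274 to 324 FPKM in WT and 258 to 316 FPKM in DKO. Of 11 mural cell genes 2 had a difference above 0 at each time, and 3 were called lower in DKO in the averaged comparison. The called genes were the smooth muscle genes Tagln (-0.98, adjusted p = 0.0146), Myh11 (-0.68, adjusted p = 0.0162) and Acta2 (-0.76, adjusted p = 0.0263). The summed level of the mural list was 50.7 to 73.1 FPKM in WT and 45.4 to 53.7 FPKM in DKO. Day WT replicate 1 was the lowest WT library for both the list and Cox6a2. In DKO, however, Day DKO replicate 2 was the highest library for the list and the lowest for Cox6a2. Of 10 microglia genes all 10 differences were above 0 at each time, and 6 were called higher in the averaged comparison. Their summed level was 109 to 136 FPKM in WT and 179 to 246 FPKM in 5 DKO libraries. Night DKO replicate 1, at 125 FPKM, lay in the WT range, and the averaged call of Cox6a2 was kept without it. Of 8 oligodendrocyte genes all 8 differences were below 0 (median -0.22), 7 at an unadjusted p under 0.05 and Opalin called lower. Their sum was 395 to 526 FPKM in WT and 321 to 459 FPKM in DKO. Of 8 endothelial genes 7 were below 0 (median -0.19), none called by limma and 7 at an unadjusted p under 0.05, with sums of 33.0 to 46.4 FPKM in WT and 29.3 to 38.3 FPKM in DKO. The blood list had all 5 differences below 0 at each time, and 3 of 5 genes were called lower in the averaged comparison. Its sums were 111 to 286 FPKM in WT and 90.5 to 159 FPKM in DKO. The astrocyte gene Gfap (0.79, adjusted p = 0.029) and the excitatory neuron gene Neurod2 (0.34, adjusted p = 0.0146) were the called genes of their lists, both higher. Of 16 choroid plexus genes none was called (1 at an unadjusted p under 0.05) although all 16 differences were below 0. The part of these lists in the result was not tested. When the choroid plexus level was added to the fit, the averaged call of Cox6a2 was kept, while the day call was not. That level itself differed between the groups, with a mean sum of 952 FPKM in Day DKO and 2274 FPKM in Day WT. Its part and that of genotype therefore cannot be told apart by this fit.

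None of the other tissue-restricted isoforms tested passed in the averaged genotype comparison. Cox8b, the muscle isoform beside Cox8a, had an averaged difference of -0.78 (SE 0.34) that did not pass (adjusted p = 0.278). Its values were 5.89, 9.80 and 2.29 FPKM in Day WT, 0.587, 3.56 and 5.89 FPKM in Day DKO, 9.70, 6.23 and 11.7 FPKM in Night WT, and 3.79, 5.50 and 5.18 FPKM in Night DKO. They overlapped by day and not at night. Ndufa4l2, which is known as a hypoxia-induced gene and marks pericytes, had a difference of -0.23 (adjusted p = 0.141), with group means of 0.746 FPKM in Day WT, 0.400 in Day DKO, 0.527 in Night WT and 0.380 in Night DKO.

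The share that the restricted isoform takes of each pair was computed from FPKM and compared by an exact permutation test within strata, 2-sided, over 16 tests. Cox6a2 made up 0.725% ± 0.223 (SD, n = 6) of Cox6a1 and Cox6a2 in DKO and 1.26% ± 0.205 in WT. That difference gave p = 0.005, the smallest that the exact test of 400 arrangements can give, and an adjusted p of 0.08. Its share by time was 1.13% at night and 0.862% by day (exact p = 0.03, adjusted p = 0.16). Neither passed. The genotype differences of the other pairs were smaller beside their spread. Cox8b made up 0.538% in DKO and 0.994% in WT (exact p = 0.05, adjusted p = 0.2), and Ndufa4l2 made up 0.103% and 0.164% (exact p = 0.025, adjusted p = 0.16). Cox7a1 made up 5.47% and 7.03% (exact p = 0.13, adjusted p = 0.26), and Cox4i2 0.0468% and 0.0411% (exact p = 0.69). The 3 genes for subunit c, whose mature product is the same, divided their sum as 29.6% Atp5g1, 24.7% Atp5g2 and 45.7% Atp5g3 in DKO and as 30.0%, 24.4% and 45.6% in WT. Their shares by time differed by -1.92 percentage points for Atp5g2 (exact p = 0.09, adjusted p = 0.24) and 1.63 for Atp5g3 (exact p = 0.235). The longest stretch of identical bases between paralogs' annotated transcripts was 10 to 28 bases, longest between Ndufa4 and Ndufa4l2.

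**Figure D4:**
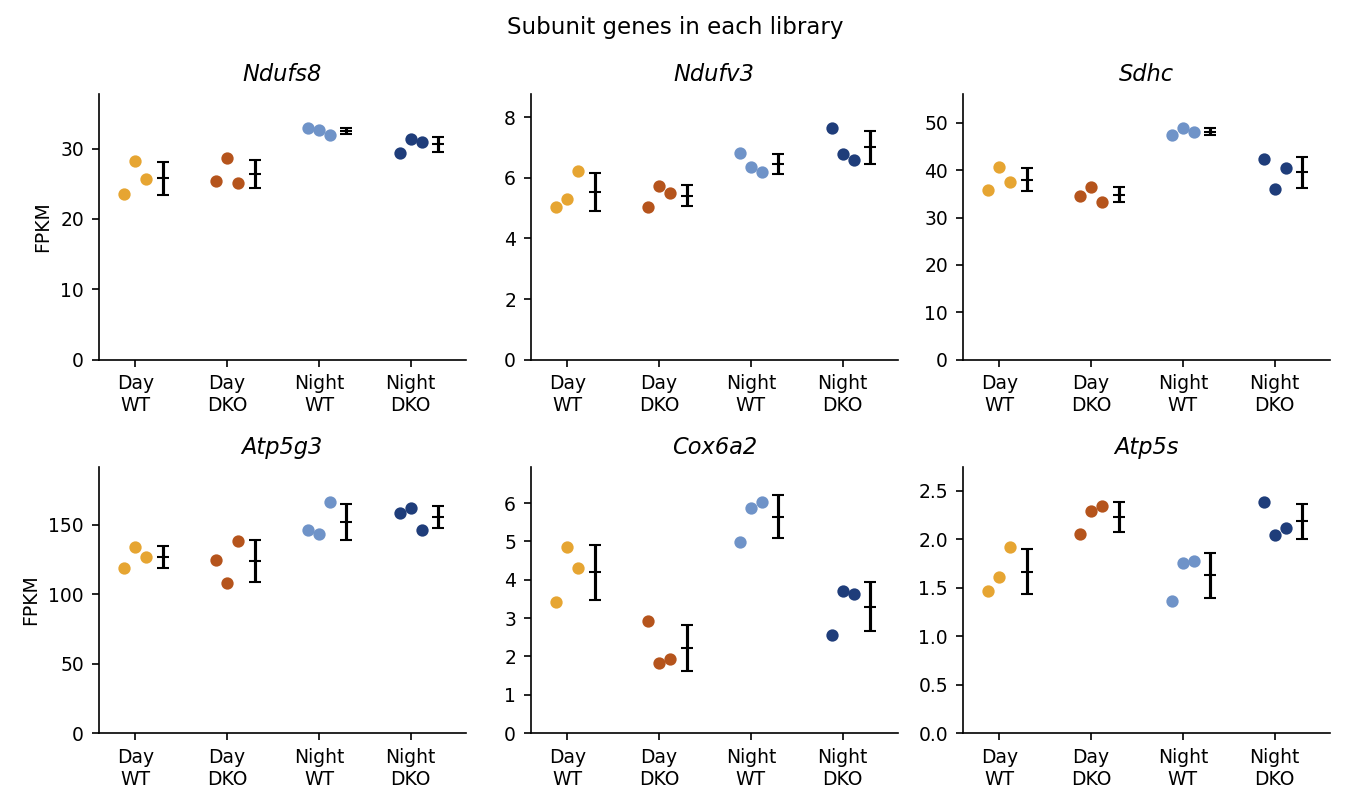
FPKM in each library of Ndufs8, Ndufv3, Sdhc, Atp5g3, Cox6a2 and Atp5s, with axes from 0; points are libraries and the bars beside them mean ± SD of 3. Ndufs8 is at 29.4 or more in all night libraries and 28.6 or less in all day libraries, and Cox6a2 is lower in DKO than in WT at each time.

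Sdhc lies near a targeted gene. Psen2 is on chromosome 1 (chr1:180227004-180263467 in RefSeq, build GRCm38.p6), and Sdhc (chr1:171129157-171150640) lies 9.08 Mb from it. Of the 82 members 6 are on that chromosome. Among them Cox5b, Ndufb3, Ndufs1 and Ndufa10 lie 87.8 to 144 Mb from Psen2 and were not called by genotype, with averaged differences of -0.03 to 0.04. A window of 20 Mb was chosen after these positions were seen. Within it 11 of 195 tested genes beside Psen2 (5.64%) were called in the averaged comparison without scaling, Sdhc not among them. On the rest of the chromosome 0.919% were. With scaling, where Sdhc was called, these were 14 of 195 (7.18%) and 2.02%. Whether position bears on the difference of Sdhc was not tested.

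By genotype Sdhc, whose values are given above, differed by an average of -0.20 (SE 0.05, adjusted p = 0.0554), and by -0.22 with scaling (adjusted p = 0.0212). Its night groups were apart, and it was called in 6 of 23 settings. Atp5s went the other way. It encodes a protein related to a coupling factor of the ATP synthase, named Dmac2l in RefSeq, rather than a structural subunit. Its FPKM was 1.47, 1.61 and 1.92 in Day WT, 2.05, 2.29 and 2.34 in Day DKO, 1.36, 1.75 and 1.77 in Night WT, and 2.39, 2.05 and 2.12 in Night DKO. Every DKO library was above every WT library. The averaged difference was 0.28 (SE 0.06, adjusted p = 0.0347; 0.27 and 0.0334 with scaling), called in 12 of 23 settings, and not when any 1 of 9 libraries was left out.

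The smallest p of other genes by complex were those of Atp5sl, named Dmac2 in RefSeq and known as an assembly factor of complex I (0.12, adjusted p = 0.31), Sdhb, the iron-sulfur subunit of complex II (0.09, adjusted p = 0.474), Uqcrq (0.07, adjusted p = 0.458) and Uqcrb, which lines the ubiquinone site of complex III (-0.11, adjusted p = 0.476).

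Groups within the complexes were formed after the values were seen and are described without a test. The 7 core genes of complex I had a median night difference, averaged over genotype, of 0.16, and 3 of 7 were called, and the 30 accessory genes had one of 0.13, with 3 of 30 called, where 5.19% of all genes were called higher. With scaling the medians were 0.11 and 0.07, and 1 of 7 and 1 of 30 were called, where 1.63% of all genes were called higher. In complex V, the 3 genes for subunit c had a median of 0.26, the 5 of the catalytic head 0.15 and the 4 of the stalk 0.12. In complex IV, the 10 ubiquitous genes had a median genotype difference of -0.01, with 3 above 0. The 5 tissue-restricted isoforms had one of -0.40 with all 5 below 0, 1 of them called, where 0.875% of all genes were called lower. Over the whole of complex IV, 13 of 16 genes were below 0.

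Genes that build, feed or regulate the chain were taken from further lists. In the averaged genotype comparison 0 of 46 assembly factors, 0 of 13 electron carriers and related genes, 0 of 15 regulators of mitochondrial biogenesis and 0 of 18 genes of the tricarboxylic acid cycle were called by limma, with 8, 1, 0 and 3 of them at an unadjusted p under 0.05. The smallest p among them was that of Atpaf2, which helps to assemble the head of the ATP synthase (0.23, adjusted p = 0.0693). At night against day, 4 of 18 genes of the tricarboxylic acid cycle list were called higher, where 5.19% of all genes were. In sign, 18 of the 18 were above 0 in WT and 15 in DKO. Among the called genes were the mitochondrial NADP-dependent isocitrate dehydrogenase Idh2 (0.36, adjusted p = 0.00794), Pdhx, a component of the pyruvate dehydrogenase complex (0.17, adjusted p = 0.0382), and Sucla2 of succinate-CoA ligase (0.16, adjusted p = 0.0422). With scaling Idh2 alone was called (0.31, adjusted p = 0.0118). Coq10b, which binds coenzyme Q, was the only carrier gene called. It had 6.40 to 7.51 FPKM in the 6 day libraries and 9.99 to 12.2 FPKM in the 6 night libraries, without overlap, and rose by 0.58 (SE 0.06, adjusted p = 0.000278; 0.53 with scaling). None of 46 assembly factors was called by time (5 at an unadjusted p under 0.05), the smallest p being that of Surf1, an assembly factor of complex IV (0.15, adjusted p = 0.0771). Nrf1, the gene of the factor whose motif is given above, ran from 1.38 to 1.5 FPKM by day and from 1.12 to 1.38 FPKM at night, a difference of -0.13 that did not pass (adjusted p = 0.0818).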

How the data were processed

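Per the labels' protocols, a stranded kit that depletes ribosomal RNA was used on total RNA, and the submitters' processing notes name build GRCm38.p6. The authors deposited 1 table per library of FPKM, which no header names and which was read from the numbers: the lowest value of a gene above 0 fell with transcript length (Spearman's rho = -0.689 across 2585 genes). How reads were aligned, quantified and shared between paralogs or pseudogenes is not given in the sources used here. Read totals are likewise not stated, so counting intervals are left out.

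Values were transformed to log2(FPKM + 1), which understates the changes of low genes. The 12689 genes that reached FPKM 0.5 in 3 libraries were fitted with limma 3.58.1 (R 4.3.3), with 1 mean per group over 12 libraries, an intensity trend, 2-sided tests and Benjamini-Hochberg adjustment over all genes tested, in 7 comparisons. The fit was repeated after median-of-ratios scaling of FPKM. Comparisons that share libraries are not independent of each other. The steps were tested on simulated data. Coordinates and names were taken from RefSeq by gene ID, for 84 of 84 genes.

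Members and lists were chosen with earlier results of these data known. Named are all members called in any comparison, the 2 smallest p per complex in the averaged and interaction comparisons, the highest and lowest member of each complex, the isoform pairs, up to 3 genes of each further list, and Psen2. Some items that this rule names are not reported here. Other genes, named for a position or as markers, were chosen after their values were seen. Alternatives tried were median-of-ratios scaling, quantile normalization, removal of a length trend, a pseudocount of 0.1, no filter, FPKM of at least 1 in all libraries, only the groups compared, a replicate block, array quality weights, choroid plexus level as a covariate, Ndufa4 and Ndufa4l2 counted in complex IV, and leaving out each library.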

Additional observations from a re-analysis of the deposited data

How the results depend on the processing

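Of the 7 counts of called members, those for the interaction, for genotype at night and for time in DKO were 0 under every alternative tried. The count by day, 1, fell to 0 with no filter, with the replicate block and median-of-ratios scaling together, with array quality weights, with the choroid plexus covariate and with only the groups compared. The count of night against day in WT, 3, was 0 with median-of-ratios scaling, quantile normalization, the length trend removed, no filter, the replicate block with scaling and only the groups compared, and 1 with the replicate block. The averaged genotype count, 2, was 4 with median-of-ratios scaling, quantile normalization, the length trend removed and the replicate block with scaling, 1 with the choroid plexus covariate and 0 without a filter. The averaged time count, 9, was 3 with median-of-ratios scaling, quantile normalization and the choroid plexus covariate, and 2 with the length trend removed and with the replicate block with scaling. Of 18 same-number correlations of deviations, from -0.12 to 0.25, 7 exceeded 0.1. All 3 did so between Day DKO and Night WT, and not in the other 5 pairs of groups. Day DKO and Night WT stand on opposite sides of both averaged comparisons. The labels name no shared batch, and 3 of 12 libraries correlated best with their own number in every other group, so the numbers were not taken to pair the samples. The replicate block alone gave 11 for the averaged time count, 2 for the averaged genotype count and 1 by day. Leaving out each library gave 0 to 1 by day, 0 to 4 in WT, 1 to 2 by averaged genotype and 2 to 13 by averaged time. The day count was 0 without Day WT replicates 2 or 3, Day DKO replicates 2 or 3, Night WT replicates 2 or 3 or Night DKO replicate 3. The WT count was 0 or 1 without any 1 of 10 libraries, all but Day DKO replicates 1 and 2. The averaged time count was 2 without Day WT replicate 1, 3 without Night WT replicate 1, 4 without Night WT replicate 3 or Night DKO replicate 1, and 5 without Day DKO replicate 1, Night WT replicate 2 or Night DKO replicate 3. The averaged genotype count was 1 without Day WT replicate 2, Day DKO replicates 2 or 3, Night WT replicates 1 or 3 or Night DKO replicates 2 or 3.

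Medians by complex that moved by more than the spread between replicates did so as follows, 711 of 749 values staying within it. Night against day in WT, complexes I, II, III and V had 0.106, 0.121, 0.144 and 0.0883 with median-of-ratios scaling, with or without the replicate block, and 0.052, 0.0895, 0.0849 and 0.0489 with quantile normalization. With the length trend removed complexes I to V had 0.0752, 0.109, 0.113, 0.0195 and 0.0419. By day, complexes I, II, III and V had -0.0252, 0.00805, -0.0172 and 0 with quantile normalization, and complex II had 0.0081 with the choroid plexus covariate. In DKO at night against day, complex I had 0.0242 with the length trend removed. In the interaction, complexes I, II, III and V had 0.00362, -0.063, -0.0432 and -0.0453 with quantile normalization, and I and V had -0.0361 and -0.0622 with the length trend removed. Averaged over genotype, night against day gave 0.0479 and 0.0429 for I and V with quantile normalization and 0.038, 0.0533 and 0.0312 for I, III and V with the length trend removed. Without 1 library at a time, complex II by day ranged from 0.0186 (without Day DKO replicate 2) to 0.132, complex I in DKO from 0.0124 (without Day DKO replicate 1) to 0.111, and complex V in the interaction from -0.205 to -0.0589 (without Day DKO replicate 2; -0.0705 without replicate 3). Beyond those settings whose construction changes the genes or samples fitted, the cause was not tested. No isoform share passed its threshold in any of 192 values without a library. This does not measure stability, since 1 share alone at the smallest p of 0.005 over 16 tests has an adjusted p of 0.08. Depth limits low genes such as Cox7b2, Ndufa4l2 and Atp5s, but the files do not give it.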
